A study of Mus musculus with 12 samples.

Results

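The genes described here are 10 snoRNA host genes of the mouse, Snhg1, Snhg3, Snhg4, Snhg5, Snhg6, Snhg7, Snhg8, Snhg12, Snhg15 and Gas5, with the YY1 peaks called around their transcript starts. They were chosen by name. Of the 10, 8 were found by symbol among the 55413 nuclear genes of the GENCODE M21 annotation (mm10), and these 8 were counted. Snhg4 and Snhg7 are not named in that annotation, were placed by RefSeq transcripts on the same build, and are described apart. YY1 ChIP-seq was performed in lineage-negative (Lin−) bone marrow cells, the progenitors left after antibody removal of mature blood cells, of 3-month-old female mice of the strain 129Sv4/Jae x B6. Wild-type mice (WT) gave 2 libraries, and mice lacking Xist in their blood cells (XistΔ/Δ) gave 2, and the comparison asks whether loss of Xist, the noncoding RNA that silences the inactive X chromosome, goes with a difference in YY1 peaks. In XistΔ/Δ mice, a floxed Xist allele was recombined by Vav-iCre, a transgene active across blood lineages, and the labels do not state whether WT mice carried it. The labels name no animals, so the spread between libraries may be partly technical, and in these mixed cells a different cell makeup and different YY1 binding per cell cannot be told apart.

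Small nucleolar RNAs (snoRNAs) guide chemical modification and processing of ribosomal RNA. Box C/D snoRNAs (symbols Snord) direct ribose methylation and H/ACA snoRNAs (symbols Snora) direct pseudouridylation. In mammals most are cut from introns of host genes. In a noncoding host of the Snhg kind the spliced RNA has little coding capacity and is often destroyed by nonsense-mediated decay, and the start of transcription is often a cytosine followed by pyrimidines, as in genes of the translation machinery. The zinc-finger protein YY1 occupies many promoters, often at or just downstream of the start, at sites built around the letters ATGG.

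Promoter sequences were taken from RefSeq (GRCm38.p6), which held 9 windows of 300 bases for 8 of the 10 genes, with 2 for Gas5. Snhg4 and Snhg6 had no entry. The 90 bases from 40 before to 50 after the RefSeq start are given 5′ to 3′, 1 stretch per gene, because the peaks of every one of these genes lay over them. For Gas5 the second of its starts is shown, since it is the nearer one to the centre of the peaks. Capitals mark the YY1 letters found on either strand. These were AANATGG, the second form ATGGCGG, and their core, ATGGC, which overlaps both. A core on the other strand reads GCCAT. The second form on the other strand reads CCGCCAT. The first 5 stretches hold such letters and the last 3 do not.
Snhg3 (chr4:132353637-132353726, minus strand): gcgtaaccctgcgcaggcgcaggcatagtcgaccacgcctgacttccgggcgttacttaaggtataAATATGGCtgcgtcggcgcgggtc
Gas5 (chr1:161035126-161035215, plus strand): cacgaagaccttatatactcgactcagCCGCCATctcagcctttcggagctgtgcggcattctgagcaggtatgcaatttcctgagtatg
Snhg7 (chr2:26640195-26640284, minus strand): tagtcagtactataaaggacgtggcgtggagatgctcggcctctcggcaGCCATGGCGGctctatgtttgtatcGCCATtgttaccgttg
Snhg12 (chr4:132308638-132308727, plus strand): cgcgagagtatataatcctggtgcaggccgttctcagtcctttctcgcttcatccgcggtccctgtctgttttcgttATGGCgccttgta
Snhg15 (chr11:6528711-6528800, minus strand): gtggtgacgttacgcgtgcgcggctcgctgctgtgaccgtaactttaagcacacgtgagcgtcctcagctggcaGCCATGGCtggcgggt
Snhg1 (chr19:8723447-8723536, plus strand): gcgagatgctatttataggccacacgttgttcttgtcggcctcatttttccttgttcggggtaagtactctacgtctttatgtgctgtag
Snhg5 (chr9:88522848-88522937, minus strand): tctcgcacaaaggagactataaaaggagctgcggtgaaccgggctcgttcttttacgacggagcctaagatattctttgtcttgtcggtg
Snhg8 (chr3:123508287-123508376, minus strand): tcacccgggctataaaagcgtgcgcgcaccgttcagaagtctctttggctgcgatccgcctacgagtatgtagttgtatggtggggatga

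YY1 letters were present in the promoter windows of some of the hosts. AANATGG was in 1 of the 9 windows, that of Snhg3, against 16.1% of all 32841 RefSeq windows. ATGGCGG was in 2 windows, of Gas5 and Snhg7, against 4.05% of all windows, and the longer form AANATGGCG was in none, against 2.38%. The core ATGGC, searched after the sequences had been seen, was in the 90-base stretch of 5 of the 9 windows (1 each of Gas5, Snhg3, Snhg7, Snhg12 and Snhg15), against 16.2% of all such stretches, and in the whole window of Snhg5 as well, against 40.5% of all windows. Counted from the RefSeq start, where the first transcribed base is 0, the first base of the match lay at 26 in Snhg3 (AANATGG), 37 in Snhg12 (core, plus strand), 34 and 37 in Snhg15 (core, on opposite strands), 12 in Snhg7 and -13 in Gas5 (ATGGCGG). Each of these matches lay inside the peak of its gene in 4 of 4 libraries. A match of letters is a description and not a mapped binding site.

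Some of the 9 windows also had other features that the choice of genes had not used. The letters TATA, searched after the sequences had been seen, lay in the 40 bases before the start in 6 of the 9 windows (1 each of Gas5, Snhg1, Snhg5, Snhg7, Snhg8 and Snhg12), against 7.63% of all windows. Transcription began with C and 4 pyrimidines in 3 of the 9 windows (1 each of Gas5, Snhg7 and Snhg8), against 2.50% of all windows, a count that a shift of 1 base in an annotated start would change. The windows were rich in CpG: the observed-to-expected CpG ratio was 0.927 in the median of the 9 windows (range 0.672 to 1.26) against 0.384 over all windows, with a GC content of 62.0% (range 46.0% to 73.7%) against 52.7%.

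The 8 annotated hosts lie on 6 autosomes (mm10). Snhg1 (ENSMUSG00000108414.1) spans bases 8723475 to 8726443 of chromosome 19 on the plus strand. Snhg3 (ENSMUSG00000085241.7) spans 132348014 to 132353686 of chromosome 4 on the minus strand, and Snhg12 (ENSMUSG00000086290.9) lies nearby on the plus strand at 132308623 to 132311024. Snhg5 (ENSMUSG00000097195.9) is at 88521050 to 88522929 of chromosome 9, Snhg8 (ENSMUSG00000104960.1) at 123507552 to 123508404 of chromosome 3 and Snhg15 (ENSMUSG00000085156.7) at 6525591 to 6528760 of chromosome 11, all on the minus strand. Chromosome 1 carries Snhg6 (ENSMUSG00000098234.7) at 9941959 to 9944118 on the minus strand and Gas5 (ENSMUSG00000053332.13) at 161034422 to 161038539 on the plus strand. All are annotated as noncoding, and each has between 3 and 20 annotated transcript starts.

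The 4 peak lists differed in depth. From 24.9 and 50.0 M tags (aligned reads as the peak caller counts them), WT replicates 1 and 2 gave 9553 and 15933 peaks, while XistΔ/Δ replicates 1 and 2 gave 10075 and 18113 from 23.1 and 59.5 M. A peak was present over the 5′ end of Xist in both WT libraries and in neither XistΔ/Δ library, as the labels say. Of 8 progenitor marker genes 4 (Lyl1, Myb, Runx1 and Spi1) had a peak in all 4 libraries, and the other 4 (Cd34, Flt3, Gata2 and Kit) had one in 1 or 2. Of the genes listed for the antibodies that removed mature cells, Ptprc had a peak in all 4 and Itgam in 3, and Cd3e, Cd4, Cd8a, Ly6c1 and Ly6g had none. Ptprc is listed for the antibody against CD45R/B220 and was not shown here to mark mature cells alone. A peak does not measure expression.

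Every annotated host had a YY1 peak at its promoter in every library. A peak within 3 kb of a transcript start was present in all 4 libraries for 8 of the 8 hosts (Snhg1, Snhg3, Snhg5, Snhg6, Snhg8, Snhg12, Snhg15 and Gas5). Among all genes this held for 18.1%, and among long noncoding genes for 10.7%. That share grew with the number of annotated starts, from 8.32% of genes with 1 or 2 starts to 37.2% with 3 to 5, 57.3% with 6 to 10 and 64.3% with 11 or more, and among long noncoding genes it was 20.7% with 3 to 5 starts, 36.2% with 6 to 10 and 28.1% with 11 or more. Each of the 8 hosts had exactly 1 peak in each library, as did 68.3% of the genes with a peak in all 4. This peak covered the 5′ end of the host in all 4 libraries, which held for the widest peak of 67.5% of those genes, and 77.9% had it over some annotated transcript start in all 4.

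**Figure D1:**
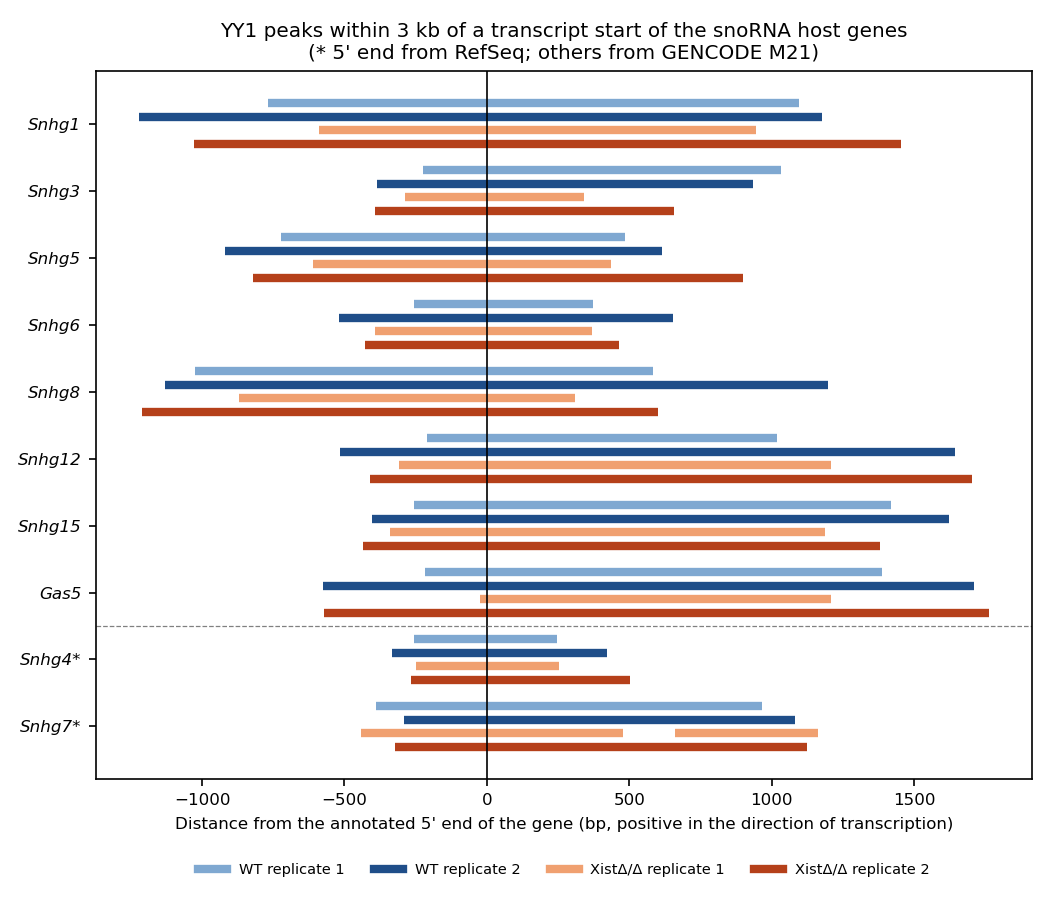
YY1 peaks at the snoRNA host genes. The horizontal axis gives distance in bp from the annotated 5′ end, positive in the direction of transcription, and each bar is 1 peak, coloured by library (WT in blue, XistΔ/Δ in orange and red, with the deeper replicate 2 in the darker shade). The bars cross the 5′ end (black line) at all 10 genes in all 4 libraries, and only Snhg7 had a second peak, in XistΔ/Δ replicate 1.

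The peaks were not centred alike. At Snhg3, Snhg12, Snhg15 and Gas5 the centre lay downstream of the 5′ end in all 4 libraries, 4 of 8 hosts against 51.6% of genes with 4 peaks. The centre was 404 to 647 bp downstream at Snhg12, 424 to 610 bp at Snhg15 and 568 to 596 bp at Gas5, so the centre at Gas5 moved by 28 bp over libraries of unequal depth. Gas5 has 20 annotated starts, of which 13 or 14 lay inside the peak, and the centre was within 61 bp of one of them in each library. With so many starts, nearness to one of them does not place the peak. At Snhg5 and Snhg8 the peak lay mostly upstream in 3 of 4 libraries, with centres from -154 to 40 bp and from -304 to 33 bp. Snhg1 and Snhg6 had peaks spread to both sides, with centres from -23 to 214 bp and from -12 to 67 bp.

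Some of these peaks also covered the start of another gene, so the peak cannot be assigned to the host alone. The peak of Snhg1 covered the start of Slc3a2, an amino acid transporter subunit transcribed in the opposite direction from 106 bp upstream. The peak of Snhg3 covered the start of Rcc1, the exchange factor of the Ran GTPase, 81 bp downstream on the same strand. The peak of Gas5 covered the start of Zbtb37, a zinc-finger gene on the opposite strand with its 5′ end 427 bp inside Gas5. These neighbours were covered in all 4 libraries. Starts of snoRNAs in the host itself were covered in all 4 libraries at Snhg1 (Gm25855 and Gm25894), Snhg12 (Snora16a, annotated in 2 entries), Snhg15 (Snora9) and Gas5 (Gm26224). They were covered in some libraries at Snhg1 (Gm24452 and Gm24453), Snhg3 (Snora73a), Snhg8 (Snora24), Snhg12 (Snora44 and Snora61) and Gas5 (Gm22357 and Gm22489). At Snhg5 and Snhg6 no other start was covered.

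Peaks reached into the snoRNA-bearing part of some hosts. Snora9, the 1 snoRNA of Snhg15, lay entirely inside the peak in all 4 libraries. At Snhg12, 2 of its 5 annotated snoRNA entries lay inside in both replicate 1 libraries and 3 in both replicate 2 libraries, and at Snhg1 the numbers were likewise 2 and 3 of 8. At Gas5, 1 of 10 entries lay inside in each replicate 1 library, 2 in WT replicate 2 and 3 in XistΔ/Δ replicate 2. Snora24 of Snhg8 lay inside in every library but XistΔ/Δ replicate 1. Neither Snord50a and Snord50b of Snhg5 nor Snord87 of Snhg6 was inside a peak in any library. Where replicate 2 covered more snoRNAs than replicate 1, it was the deeper library, and the part of depth in this was not tested.

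Peak width at the hosts is given next, since the deposited score was the same for every peak. Width is the length of the called region, which grows as neighbouring windows pass the threshold. It is not a measure of occupancy. Most hosts had wide peaks. The median over the 8 was 1432 and 2092 bp in WT replicates 1 and 2 and 1204 and 1814 bp in XistΔ/Δ replicates 1 and 2. Over all 10017 genes with a peak in all 4 libraries it was 1074, 1533, 943 and 1513 bp. As a percentile of all peaks of the same library, the median host stood at 79.5, 89.9, 80.0 and 87.1, against 64.2, 77.6, 65.4 and 79.9 for those genes. Snhg6 was below the median width of the 10017 genes in every library, and Snhg3 in all but WT replicate 1. Protein-coding genes that hold a snoRNA with a Snord, Snora or Scarna symbol on their strand had wide peaks as well. Their medians were 1340, 1848, 1164 and 1710 bp in the same order over the 68 of them with a peak in all 4 libraries. All 8 hosts had a wider peak in replicate 2 than in replicate 1 in both genotypes, as did 90.0% of genes with 4 peaks.

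In WT the widest peaks were at Snhg1 (2132 ± 380 bp, mean ± SD, n = 2), followed by Snhg8 (1968 ± 511 bp), Gas5 (1944 ± 480 bp), Snhg15 (1850 ± 248 bp) and Snhg12 (1694 ± 657 bp). Snhg5 (1372 ± 230 bp), Snhg3 (1288 ± 42.4 bp) and Snhg6 (898 ± 385 bp) had the narrowest. Neighbours in this order overlapped in their WT libraries, except Snhg3 and Snhg6.

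XistΔ/Δ and WT peaks were then compared in width at each host. The 2 libraries of a genotype spanned a wide range at most hosts. The widths of the genotypes did not overlap at 1 of 8 hosts, Snhg3, where XistΔ/Δ was narrower, against 6.43% of genes with 4 peaks narrower without overlap. No host was wider without overlap, against 1.40%. The XistΔ/Δ to WT ratio of mean widths had a median of 0.919 over the 8 hosts and of 0.953 over all genes with 4 peaks. Within replicate 1 the host median was 0.844 against 0.895, and within replicate 2 it was 0.938 against 0.996. The host median ranged from 0.741 without XistΔ/Δ replicate 2 to 1.09 without WT replicate 2, so its direction changed with the library left out. Each such setting also leaves the genotypes unequal in depth, and the part of depth in this range was not tested. Peak widths at cell type markers also differed between the genotypes, without a common direction. The ratio had a median of 0.812 over the 4 progenitor markers with a peak in all 4 libraries. Runx1 measured 3710 and 4592 bp in WT against 2066 and 3317 bp in XistΔ/Δ, and Myb 1576 and 3105 bp against 670 and 2175 bp. Spi1 was wider in XistΔ/Δ in both replicate numbers, with 968 and 1526 bp against 1190 and 2053 bp. Lyl1 was narrower in replicate 1 and wider in replicate 2, with 1838 and 4913 bp against 501 and 6084 bp. The widest peak covered a transcript start in all 4 libraries at only 1 of these 4 markers. At the others, different peaks may have been measured in different libraries. At Ptprc, listed for the antibody against CD45R/B220, the ratio was 1.49, with 1024 and 2381 bp against 1876 and 3210 bp. The part of cell makeup in the host widths was not tested. With 2 libraries per genotype, the two-sided exact permutation test used for each host cannot give a p-value below 0.333.

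**Figure D2:**
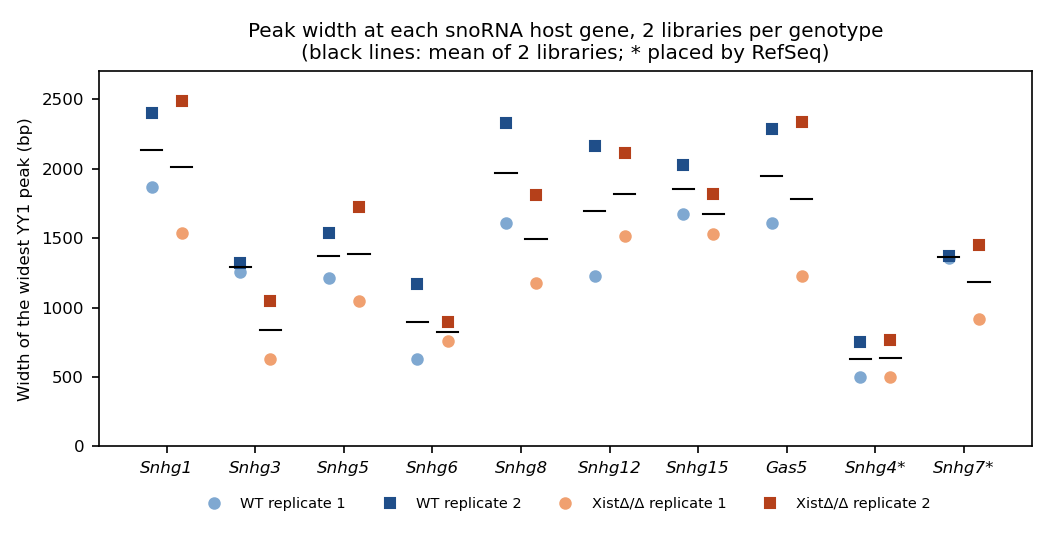
Width of the widest YY1 peak (bp, axis from 0) at each host gene. Points are libraries (circles replicate 1, squares replicate 2; WT in blue, XistΔ/Δ in orange and red) and black lines are means of 2 libraries. Only at Snhg3 do both XistΔ/Δ points, 631 and 1050 bp, lie below both WT points, 1258 and 1318 bp.

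Snhg3 carries the H/ACA snoRNAs Snora73a and Snora73b, which act in ribosomal RNA processing. Its peak measured 1258 and 1318 bp in WT replicates 1 and 2 and 631 and 1050 bp in XistΔ/Δ replicates 1 and 2. Both XistΔ/Δ libraries were below both WT libraries, with a ratio of 0.653 (log2 -0.62, exact permutation p = 0.333, the smallest possible). The ratio was 0.502 within replicate 1 and 0.797 within replicate 2. The XistΔ/Δ peak ended 690 and 277 bp earlier on its downstream side in replicates 1 and 2, while its upstream edge lay 63 and 9 bp farther out. Snora73a was therefore inside the peak in both WT libraries and in neither XistΔ/Δ library, and the Rcc1 start stayed inside in all 4. The YY1 letters printed for Snhg3 also lay inside the peak in each library.

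Snhg8 and Snhg15 are also H/ACA hosts, and their XistΔ/Δ peaks were the narrower ones within both replicate numbers. At Snhg8, the host of Snora24, the peak measured 1607 and 2329 bp in the WT libraries and 1178 and 1810 bp in the XistΔ/Δ libraries. The genotypes overlapped, and the ratio was 0.759 (exact permutation p = 0.667). At Snhg15, the host of Snora9, the peak measured 1674 and 2025 bp in the WT libraries and 1526 and 1817 bp in the XistΔ/Δ libraries. These widths overlapped too, with a ratio of 0.904 (exact permutation p = 0.667). On the percentile scale the Snhg15 ratio was 1.01, so its direction depended on the scale. With Snhg3, 3 of 8 hosts were narrower in XistΔ/Δ in both replicate numbers against 34.6% of genes with 4 peaks, and 0 of 8 were wider in both against 15.1%.

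Snhg12, which carries mainly H/ACA snoRNAs, had peaks of 1230 and 2159 bp in the WT libraries and 1515 and 2113 bp in the XistΔ/Δ libraries. The XistΔ/Δ libraries lay between the WT libraries, with a ratio of 1.07 (exact permutation p = 1.00) that was 1.23 within replicate 1 and 0.979 within replicate 2.

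The remaining hosts carry box C/D snoRNAs, and none had a direction shared by both replicate numbers. Snhg7 and Snhg12, which carry H/ACA snoRNAs, had no shared direction either, and width by snoRNA class was not tested. Gas5, first found as a transcript that accumulates in growth arrest, had peaks of 1605 and 2284 bp in the WT libraries and 1230 and 2337 bp in the XistΔ/Δ libraries, a ratio of 0.917 (exact permutation p = 1.00). Its XistΔ/Δ libraries lay outside the WT range on both sides. Snhg1, the host of Snord22 and 7 further annotated snoRNAs, had peaks of 1864 and 2401 bp in the WT libraries and 1534 and 2484 bp in the XistΔ/Δ libraries, a ratio of 0.942 (exact permutation p = 1.00). Again the XistΔ/Δ libraries lay on both sides of the WT range. Snhg5 had peaks of 1209 and 1534 bp in the WT libraries and 1045 and 1721 bp in the XistΔ/Δ libraries, a ratio of 1.01 (exact permutation p = 1.00). Snhg6 had peaks of 626 and 1171 bp in the WT libraries and 760 and 893 bp in the XistΔ/Δ libraries, a ratio of 0.920 (exact permutation p = 1.00). At Snhg6 the order was the opposite of that at the other 3: XistΔ/Δ was wider in replicate 1 (ratio 1.21) and narrower in replicate 2 (ratio 0.763). On the percentile scale the ratios at Snhg1 and Snhg6 were 1.01 and 1.14, above 1, so their direction depended on the scale.

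The 2 edges of the peaks were also compared, a measure chosen after seeing the data. The downstream edge was nearer to the 5′ end in XistΔ/Δ in both replicate numbers at 4 of 8 hosts (Snhg3, Snhg6, Snhg8 and Snhg15), against 37.5% of the 6764 genes whose peak covered the 5′ end in all 4 libraries. At Snhg8 it was 276 and 597 bp nearer in replicates 1 and 2, at Snhg15 232 and 242 bp, and at Snhg6 4 and 189 bp. Over those 6764 genes the median downstream edge was 86 bp nearer in replicate 1 and 9 bp nearer in replicate 2. At Snhg12 alone the downstream edge was farther out in both, by 187 and 61 bp, against 14.7% of genes. The upstream edge was nearer in both replicate numbers at 3 of 8 hosts, Snhg1, Snhg5 and Gas5, against 28.4% of genes. At Snhg3 and Snhg15 it was farther out in both, by 63 and 9 bp and by 84 and 34 bp. That direction was not counted over all genes.

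**Figure D3:**
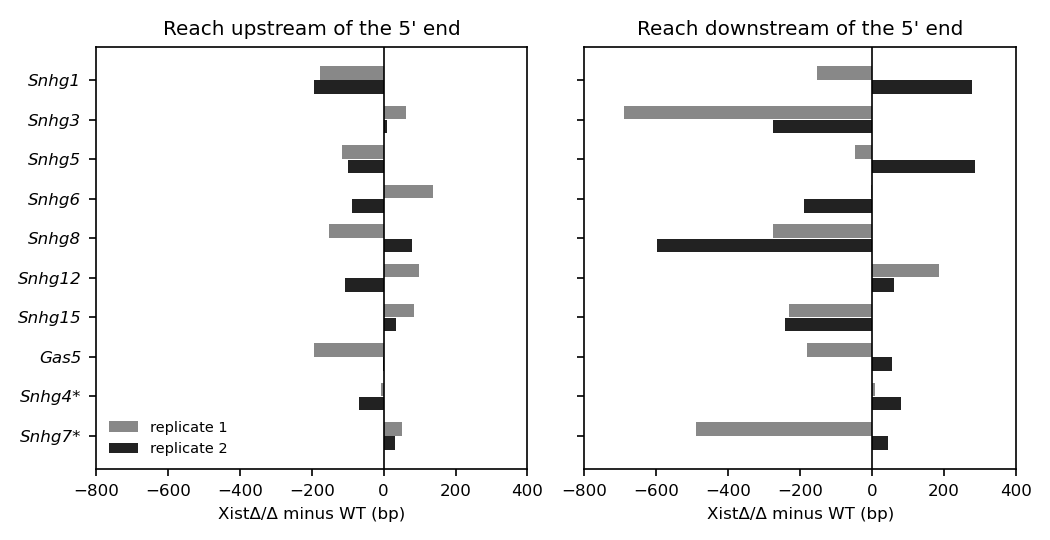
Difference between XistΔ/Δ and WT in how far the widest peak reached upstream (left) and downstream (right) of the annotated 5′ end, in bp, within replicate 1 (grey) and replicate 2 (black); bars left of 0 mean a shorter reach in XistΔ/Δ. Snhg3, Snhg8 and Snhg15 had a shorter downstream reach in both, by 690 and 277 bp, 276 and 597 bp, and 232 and 242 bp.

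The 2 hosts placed by RefSeq also had a peak over their start in all 4 libraries. Snhg7, an H/ACA host (NR_024068.2, chromosome 2, bases 26637176 to 26640244, minus strand), had peaks of 1356 and 1373 bp in the WT libraries and 918 and 1448 bp in the XistΔ/Δ libraries, a ratio of 0.867 (exact permutation p = 1.00). In XistΔ/Δ replicate 1 a separate peak of 501 bp, the smallest width called, lay downstream of the main peak in a stretch that the single peaks of the other 3 libraries covered in part. The ratio leaves this separate peak out, so its direction below 1 depends on measuring the widest peak alone. The peak at Snhg7 also covered the start of the antisense gene Snhg7os, 128 bp upstream, and a peak of each library covered the start of its snoRNA Snora17.

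Snhg4 (NR_038073.1, chromosome 18, bases 35553410 to 35558316, plus strand), the host of Snora74a, had the narrowest peaks of the 10 in each library, 501 and 755 bp in the WT libraries and 501 and 767 bp in the XistΔ/Δ libraries, a ratio of 1.01 (exact permutation p = 1.00). GENCODE M21 has the genes AC121821.1 and Gm28285 with starts inside the same peaks, 39 and 6 bp upstream of the RefSeq start.

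Other genes of the snoRNA pathway were compared by presence of a peak. Of 7 further annotated Snhg genes, 4 had a peak in all 4 libraries (Snhg9, Snhg10, Snhg17 and Snhg20) and 3 had none in any library (Snhg11, Snhg14 and Snhg18). In WT replicates 1 and 2 the widths were 840 and 1073 bp at Snhg9, 687 and 1377 bp at Snhg10, 501 and 763 bp at Snhg17, and 635 and 912 bp at Snhg20. Every one of these was below the host median in the same library. In XistΔ/Δ replicates 1 and 2 the widths were 891 and 1186 bp at Snhg9, 810 and 1641 bp at Snhg10, 626 and 1031 bp at Snhg17, and 501 and 899 bp at Snhg20. The XistΔ/Δ to WT ratio had a median of 1.14 over these 4 genes, with XistΔ/Δ wider in both replicate numbers at 3 of them and narrower in both at 1, Snhg20, and the genotypes overlapped at each. Of 72 protein-coding genes that hold a snoRNA with a Snord, Snora or Scarna symbol on their strand, 68 (94.4%) had a peak in all 4 libraries. This held for 35.7% of all protein-coding genes. Genes whose only snoRNAs have other symbols, such as Gm, were not counted among the 72. Rcc1 and Gm28285 belong to these 72 and share their peaks with Snhg3 and Snhg4. At the 68 genes the median width ratio was 0.938, 5 were narrower in XistΔ/Δ without overlap and 0 wider, beside 6.43% and 1.40% of all genes with 4 peaks.

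Proteins that bind or assemble snoRNAs, such as the methyltransferase Fbl and the pseudouridine synthase Dkc1, had a peak in all 4 libraries at 12 of 17 genes (70.6%). The other 5 (Naf1, Rpap3, Ruvbl1, Shq1 and Znhit6) had one in at least 1 library. All 10 nonsense-mediated decay factors listed, among them the helicase Upf1, had a peak in all 4 libraries, with median widths of 1015 and 1348 bp in WT against 1432 and 2092 bp at the 8 hosts.

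**Figure D4:**
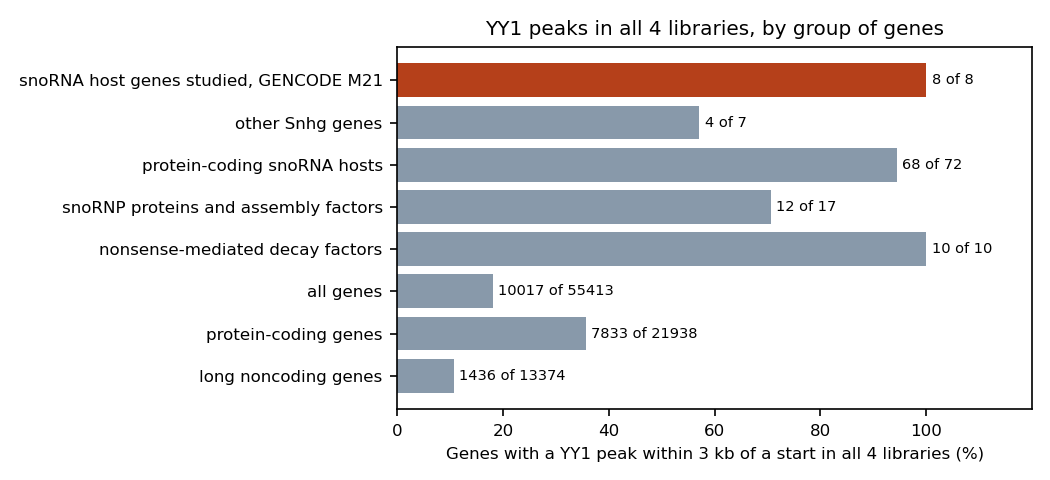
Share of genes with a YY1 peak within 3 kb of a start in all 4 libraries, in percent, for the 8 snoRNA host genes (red) and for other groups of genes (grey), with the number of genes at each bar. The hosts (8 of 8), the decay factors (10 of 10) and the protein-coding snoRNA hosts (68 of 72) stand above all genes (18.1%) and all long noncoding genes (10.7%).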

How the data were processed

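YY1 ChIP-seq peak lists of 4 libraries (2 WT, 2 XistΔ/Δ) were used; the other 8 samples of the series, of histone marks, were not analysed here. Per the study's methods and the submitters' processing notes, cross-linked chromatin was digested with micrococcal nuclease, and the authors trimmed reads with Trim Galore, aligned them to mm10 with Bowtie2 (2.3.5.1), removed reads of low alignment quality with SAMtools (1.10) and duplicates, and called peaks with HOMER (4.9.1). Per the file headers, windows of 500 bp were joined into regions of variable length in each library separately, at a false discovery rate of 0.001 and 4 fold over the local background, with no input library named, so openness of chromatin and local copy number can contribute to a peak. The smallest width was 501 bp. The deposited columns hold other values than counts, namely the start and end of each peak in bp, and a score, which is 1 for every peak and ranks nothing. Depth differed between replicates and the threshold with it, from 22 to 37 tags, and it cannot be told apart from the replicate number. Both can move the width and number of peaks. Tags per peak were not used here. Headers number replicates otherwise than the labels, which were followed. The headers of same-numbered libraries share a number whose meaning is not stated. It was treated as a batch, and values within each replicate number are given.

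A peak was assigned to a gene when any base lay within 3 kb of an annotated transcript start (GENCODE M21, without the mitochondrial genome), and the widest such peak gave the width. Widths were compared with a two-sided exact permutation test over libraries in Python (3.11.15, NumPy 2.4.6), without adjustment since no p-value could pass a threshold. Counts over the genes have no test and stand beside the share of all genes. The functions were tested on simulated peaks. Alternatives were a distance of 1 kb, the peak centre, the 5′ end alone, no peaks of the smallest width, equal list lengths, width percentiles, summed widths, leaving out each library, and the replicate number as a block. All listed genes are named, with any gene whose start lay in the same peak, and for comparison lists the members of lists of up to 10 genes or up to 3 genes without a peak, though not every member of the marker and decay factor lists is reported here. The genes and lists were chosen with earlier results of these data known. Counting Snhg4 and Snhg7 with the 8, searching the core ATGGC and TATA, and measuring the edges were chosen after seeing the data.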

Additional observations from a re-analysis of the deposited data

How the results depend on the processing

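All 8 annotated hosts kept a peak, and a peak over a start, in all libraries used under a distance of 1 kb, the peak centre, the 5′ end alone, peaks of the smallest width left out, equal list lengths and each library left out. The background share was 15.4% to 17.6% over the first 5 of these. With Snhg4 and Snhg7 counted as well, 10 of 10 had such peaks and the median ratio was again 0.919. Directions of width did depend on the processing, and the causes were not tested. On the percentile scale the median ratio was 1.01, and the ratio turned to 1.01 at Snhg1, 1.14 at Snhg6 and 1.01 at Snhg15. Leaving out 1 library sets 2 libraries against 1, where widths fail to overlap more easily than with 2 against 2. It also leaves the genotypes unequal in depth, and the part of depth in the values that follow was not tested. Counts without overlap in these settings were not made over all genes, and the shares given for all 4 libraries do not apply. They therefore cannot show whether the hosts differ from other genes. With 1 library left out, hosts narrower without overlap numbered 1 to 6 and hosts wider 0 to 3, and the median ratio ran from 0.741 to 1.09. By host, ratios with 1 library left out ran from 0.719 to 1.16 at Snhg1 (above 1 without WT replicate 2, at 1.08, or XistΔ/Δ replicate 1, at 1.16), 0.762 to 1.25 at Snhg5 (below 1 without WT replicate 1, at 0.902, or XistΔ/Δ replicate 2, at 0.762), 0.706 to 1.32 at Snhg6 (above 1 without WT replicate 2), 0.840 to 1.47 at Snhg12 (below 1 without WT replicate 1, at 0.840, or XistΔ/Δ replicate 2, at 0.894) and 0.633 to 1.20 at Gas5 (above 1 without WT replicate 2, at 1.11, or XistΔ/Δ replicate 1, at 1.20). They stayed below 1 at Snhg3 (0.490 to 0.815), Snhg8 (0.599 to 0.930) and Snhg15 (0.825 to 0.999). Searching the core ATGGC in place of AANATGG and ATGGCGG raised the promoters with YY1 letters from 3 to 6 genes. Over all RefSeq windows the share rose as well, from 18.4% to 40.5%.

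With the replicate number as a block, 3 hosts (Snhg3, Snhg8 and Snhg15) were narrower in XistΔ/Δ within both replicate numbers and 0 were wider. Among all genes with a peak in every library these shares were 34.6% and 15.1%. The block ratio was also below 1 at Snhg1 (0.923), Snhg5 (0.985), Snhg6 (0.962) and Gas5 (0.886), where the replicate numbers differed in direction. At Snhg12 it was 1.10. The ratio at Snhg5 was 1.01 without the block. The same-numbered libraries share a number and are also close in depth. Replicate 1 had 24.9 M tags in WT and 23.1 M in XistΔ/Δ, and replicate 2 had 50.0 and 59.5 M. The width deviations of same-numbered libraries from the group means correlated at r = 0.280 across 10017 genes, which are not independent replicates. The part of depth in this correlation was not tested, and with 2 pairs it does not show that the numbers pair the samples.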
